A study of Homo sapiens with 19 samples.

Results

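The elements described here are those of the reporter library whose names are a number alone, followed by .fwd or .rev, such as 54136.fwd. They were taken by that form of the name from all 8 deposited tables, with no use of any measured value. There are 62 of them among the 3422 elements of the series. They carry 34 different numbers of 5 digits each, and 28 of the numbers were measured in both orientations, taken here as fwd and rev, which gives 32 fwd and 30 rev elements. The names do not say what DNA the elements carry, so they are called the numbered elements below and no sequence is printed for them.

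The experiment was a QUASARR-seq assay, a massively parallel reporter assay that reads promoter and enhancer output of the same DNA element from barcodes in the transcripts. K-562, a human leukaemia line that grows in suspension, received the plasmid pools by electroporation, with 20 µg of plasmid in each of 5 electroporations per technical replicate. Cells were collected 6 h later, and RNA and DNA were made from separate portions of a technical replicate, the larger one for RNA. Every group used here was this cell line, the labels name no drug or genetic change, no mock-transfected sample was used here, and the comparison within a table is RNA (2 replicates) against the DNA of the same pools (2 replicates).

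A set 1 library paired its elements with the minimal promoter pMYC, and a set 2 library paired its elements with pGAPDH, pMYC and pAPOBEC3F in the same transfection. Each construct was read through a barcode named paBC and a barcode named eaBC. The labels do not spell these names out, and they are taken here as the promoter and the enhancer read-out. That gives 16 libraries from transfected cells, and 3 libraries of untransfected plasmid that link barcodes to elements were not used here. The labels do not say whether Rep1 and Rep2 are separate biological experiments or technical replicates of 1 experiment. Every p-value below therefore rests on the spread between these libraries only. With 2 replicates, limma takes much of that spread from other elements of the table at a like signal level. An SE can thus be smaller than an element's own replicates would give.

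As background, a reporter assay divides the RNA of each barcode by its DNA, because an element present on more plasmids gives more transcripts at the same activity. An RNA/DNA ratio has no natural zero: the values are scaled within a table, and a set of elements with little activity of their own is commonly used to place it. A minimal promoter drives some transcription without help, an enhancer raises that output in either orientation, and a promoter starts transcription mainly in one direction. Orientation therefore bears on a promoter read-out more directly than on an enhancer read-out. Whether the numbered elements were included as such inactive controls is not stated in the labels, and what follows describes how they would behave as a zero point.

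The numbered elements were a small share of the library. Listed numbered elements came to 54 in each of both set 1 tables, 37 in each pMYC table of set 2, 48 in each pGAPDH table and 35 in each pAPOBEC3F table. Of the 62 elements, 20 were in all 8 tables and 49 were in both sets. They held 0.262% to 1.22% of the reads of a library. In the set 1 promoter DNA libraries the median numbered element had 1512 reads in replicate 1 and 1504 reads in replicate 2, against 5714 and 5596 reads for the median of the other elements. In the set 2 pMYC promoter DNA libraries the gap was smaller, with 807 and 757 reads against 1004.5 and 1025.5. Total reads over the listed elements ranged from 200722 in RNA replicate 1 of the pAPOBEC3F enhancer table to 10880944 in DNA replicate 1 of the set 1 promoter table. Reads were worked out from the size of the smallest step in each column, as the processing account explains.

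Thin coverage was concentrated in the enhancer tables. No numbered element that was tested fell under 10 reads in any library of the set 1, set 2 pMYC and pGAPDH promoter tables, nor of the pGAPDH enhancer table, whereas 10 elements did in the pAPOBEC3F enhancer table, 4 in the set 1 enhancer table, 3 in the pMYC enhancer table of set 2 and 1 in the pAPOBEC3F promoter table. 56129.fwd had 0 and 0 RNA reads and 10 and 4 DNA reads in the pAPOBEC3F enhancer table, too few for a ratio. 54500.rev had 0 and 9 RNA reads and 1 and 68 DNA reads in the set 1 enhancer table, so its first replicate says nothing. The authors' tables give no test for 55710.rev in the set 1 promoter table, with signals of 5.73 and 2.24 in RNA and 8.10 and 7.09 in DNA, nor for 56129.fwd in the pAPOBEC3F promoter table, with 5.06 and 3.67 in RNA and 6.42 and 7.11 in DNA.

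With the pMYC promoter of set 1, the numbered elements sat below the library as a whole in the promoter read-out, but they were not flat. Their median log2 RNA/DNA ratio was -0.25 over 53 tested elements, with -0.23 in replicate 1 and -0.19 in replicate 2. The median of all 1528 tested elements was 0.39, so the numbered ones lay 0.64 lower on the log2 scale (a difference of -0.64), at the 24.1th percentile. Single elements spread from -1.32 to 0.87. The SD between them was 0.49, against an SD between replicates of 0.22.

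In that table, limma called 15 of the 53 numbered elements higher in RNA than in DNA and 23 lower at an adjusted p under 0.05, where 55.9% of all tested elements were called higher and 25.7% lower. Together, 71.7% of the numbered elements were called in 1 direction or the other. Without DNA replicate 1 or DNA replicate 2 the higher calls numbered 8 in each case and the lower calls 13 and 15. Centred on the median of all elements instead of the deposited scale, 3 were called higher and 37 lower, so the split between the directions is set by the zero point.

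The highest of them was 54276.fwd, with RNA signals of 59.5 and 49.2 against DNA signals of 31.7 and 27.9. Both RNA libraries exceeded both DNA libraries, and the log2 ratio was 0.87 ± 0.06 (SD, n = 2) with a limma adjusted p of 0.00058. The next were 56507.fwd, with 208 and 210 in RNA against 140 and 135 in DNA, and 54136.fwd, with 202 and 189 in RNA against 128 and 130 in DNA. All of the 3 highest elements were in the fwd orientation.

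At the other end, 54128.fwd had RNA signals of 6.30 and 9.95 against DNA signals of 20.5 and 19.7. Its replicates agreed in direction but not in size, with log2 ratios of -1.67 and -0.97. 56194.rev had 98.2 and 83.8 in RNA against 186 and 192 in DNA, a log2 ratio of -1.06 ± 0.19 (SD, n = 2, limma adjusted p = 1e-05). 56714.rev followed with 18.9 and 17.9 in RNA against 36.1 and 35.8 in DNA. In each of these 3 elements every RNA library lay below every DNA library.

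With the pMYC promoter in set 2, a separate library and transfection, the numbered elements again lay below the whole. Their median promoter log2 ratio was -0.22 over 37 elements (-0.09 in replicate 1 and -0.22 in replicate 2), which is -0.46 relative to the median of all 2561 elements. Limma called 10 higher and 18 lower, where 51.6% of all tested elements were called higher and 27.6% lower. Centred on all elements, 6 were called higher.

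54136.fwd was the highest numbered element there, with 47.4 and 47.0 in RNA against 26.1 and 23.2 in DNA. Its log2 ratio was 0.94 ± 0.11 (SD, n = 2, limma adjusted p = 0.00015). 54986.fwd had 245 and 289 in RNA against 150 and 142 in DNA, and 56714.fwd had 150 and 131 in RNA against 92.6 and 94.7 in DNA. RNA exceeded DNA in every library of all 3, and all 3 were again fwd elements.

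The lowest was 55969.rev, with 21.3 and 10.0 in RNA against 41.1 and 43.2 in DNA. The RNA signals differed more than 2 times from each other, both lay below DNA, and the log2 ratio was -1.50 ± 0.81 (SD, n = 2, limma adjusted p = 0.00022). 55710.rev had 55.0 and 45.7 in RNA against 109 and 110 in DNA, and 54891.rev had 37.8 and 40.7 in RNA against 76.6 and 78.1 in DNA. These were rev elements, each with RNA below DNA in both replicates.

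With the pGAPDH promoter the numbered elements did not lie below the whole. Their median log2 ratio was -0.08 over 48 elements, -0.07 in replicate 1 and -0.11 in replicate 2, and differed by -0.01 from the median of all 3044 elements. Of the 48, limma called 17 (35.4%) higher and 23 (47.9%) lower. Among all tested elements 36.5% were called higher and 47.1% lower, so the shares were alike. The SD between elements was 0.61 against an SD between replicates of 0.17, so this table separated the numbered elements from one another more clearly, relative to replicate error, than did the others.

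53604.fwd had RNA signals of 204 and 208 against DNA signals of 116 and 110 in the pGAPDH promoter table, a log2 ratio of 0.87 ± 0.07 (SD, n = 2, limma adjusted p = 2.1e-12). 54347.rev had 135 and 118 in RNA against 69.5 and 68.8 in DNA, and 56320.rev had 28.7 and 32.2 in RNA against 14.6 and 19.9 in DNA. Here rev elements stood among the highest, unlike the 3 highest with pMYC. The lowest, 56194.rev, had 26.55 and 25.03 in RNA against 68.1 and 64.1 in DNA, a log2 ratio of -1.36 in each replicate (limma adjusted p = 3.1e-11).

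55710.rev and 54588.rev were the next lowest with pGAPDH. 55710.rev had 9.04 and 6.69 in RNA against 15.6 and 24.2 in DNA. 54588.rev had 31.9 and 33.5 in RNA against 71.5 and 69.3 in DNA. Both were below DNA in every library, and the DNA values of 55710.rev differed between replicates more than those of 54588.rev did.

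With the pAPOBEC3F promoter the median log2 ratio was -0.04 over 34 tested elements (-0.14 in replicate 1 and -0.08 in replicate 2), which is -0.28 relative to all 2699 elements. Limma called 7 higher and 11 lower, where 50.5% of all tested elements were called higher and 30% lower. Without DNA replicate 1 the higher calls numbered 4, and without RNA replicate 2 the lower calls numbered 17. Centred on all elements, 3 were called higher and 19 lower.

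The lowest numbered value of any promoter table was that of 54773.rev with pAPOBEC3F, where RNA was 19.2 and 14.7 against 64.5 and 64.3 in DNA. The log2 ratio was -1.90 ± 0.27 (SD, n = 2, limma adjusted p = 2e-05), and the RNA libraries lay well below the DNA libraries. 55969.rev had 35.4 and 22.9 in RNA against 65.6 and 61.6 in DNA. 54128.rev, with 11.1 and 2.75 in RNA against 14.9 and 15.7 in DNA, rested on 11 and 3 RNA reads and did not pass the test (limma adjusted p = 0.052, or 0.0051 with the replicate block).

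The highest with pAPOBEC3F was 56507.fwd, with 47.5 and 51.4 in RNA against 28.8 and 31.8 in DNA, a log2 ratio of 0.72 ± 0.02 (SD, n = 2, limma adjusted p = 0.0037). 54986.fwd had 81.9 and 60.5 in RNA against 45.6 and 50.9 in DNA, and 71838.fwd had 125 and 124 in RNA against 86.8 and 90.4 in DNA. All 3 were fwd elements with RNA above DNA in every library.

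In the promoter read-out the median of the fwd numbered elements lay above that of the rev ones in every table. In the set 1 promoter table the 28 fwd elements had a median log2 ratio of 0.22 and the 25 rev elements one of -0.40. Of the fwd elements 14 were called higher and 7 lower, and of the rev elements 1 was called higher and 16 lower. Of all fwd elements listed there, 60.7% were called higher and 18.3% lower, and of all rev elements 51% and 33.1%. The medians of all elements in that table were 0.47 for fwd and 0.26 for rev, a smaller gap in the same direction.

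The set 2 tables gave the same order of the medians. With pGAPDH the fwd median was 0.20 (n = 23) and the rev median -0.34 (n = 25). With pAPOBEC3F the fwd median was 0.08 (n = 20) and the rev median -0.46 (n = 14), and limma called 0 of the 14 rev elements higher, 0 also at an unadjusted p under 0.05, while the authors' own limma calls held 0 and 1. It called 7 of these 14 lower, where 47% of all rev elements in that table were called higher and 35.1% lower. The gap was smaller with pMYC in set 2, with -0.10 for fwd (n = 20) and -0.27 for rev (n = 17). These are medians over elements, and the fwd and rev sets do not hold all the same numbers.

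A comparison within a number removes that difference in make-up, since fwd and rev are then taken as the same DNA turned round. For 21 numbers with both orientations tested in the set 1 promoter table, the median difference of the log2 ratios, fwd minus rev, was 0.49 (0.48 in replicate 1 and 0.54 in replicate 2). Fwd lay above rev for 18 of the 21 (85.7%), against 66.7% of all pairs. Limma on the difference called fwd higher for 14 numbers and lower for 1, where 50.1% of all 711 pairs tested were called higher and 23.5% lower. The median over all pairs was 0.22. The 3 element classes of the same set whose names begin with KNGAE, KNGAT and KNGUT, which had promoter medians of -0.39, -0.37 and -0.29, gave median differences of 0.39, 0.33 and 0.35. A fwd excess was therefore also found in other low classes and is not particular to the numbered elements.

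With pGAPDH the median difference over 20 numbers was 0.73 (0.80 in replicate 1 and 0.57 in replicate 2), against 0.04 over all 1429 pairs. Fwd lay above rev for 12 of the 20 (60%), against 53.5% of all pairs. Fwd was called higher for 12 numbers and lower for 4, where 40.5% of all pairs were called higher and 33.1% lower. The KNGAE, KNGAT and KNGUT classes gave median differences of 0.11, 0.07 and 0.03 with this promoter, and the class TRE5NGCC gave -0.02. No test set the numbered pairs against these classes. The differences of the numbered pairs reached from -1.34 to 1.38, so the median stands for a mixed set.

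With pAPOBEC3F the median difference over 11 numbers was 0.44 (0.34 in replicate 1 and 0.63 in replicate 2), against 0.14 over all 1192 pairs. Fwd lay above rev for 8 of the 11 (72.7%), against 60.2% of all pairs. Fwd was called higher for 6 numbers and lower for 1, where 36.8% of all pairs were called higher and 21.5% lower. Among those called higher, 54128 had differences of 0.28 and 2.34 by replicate (SE 0.44). With pMYC in set 2 the median over 12 numbers was 0.01, against 0.13 over all 1086 pairs, and its replicates gave 0.20 and -0.08. Fwd lay above rev for 7 of the 12 (58.3%), against 60.2% of all pairs. Fwd was called higher for 4 and lower for 2, where 40.3% of all pairs were called higher and 23.1% lower. The share called fwd higher with pMYC in set 2 was not above that among all pairs.

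The number 55969 had the largest difference in the set 2 pMYC promoter table. Its fwd element had 404 and 380 in RNA against 262 and 290 in DNA, and its rev element 21.3 and 10.0 in RNA against 41.1 and 43.2 in DNA. RNA lay above DNA in the fwd orientation and below it in the rev orientation, a difference of 2.01 on the log2 scale (1.55 and 2.46 by replicate, SE 0.20, limma adjusted p = 6.8e-22). The SD of the replicate differences was 0.64, so the SE of 0.20 leans on the other pairs of that table. The rev value rests on RNA signals that differ more than 2 times between replicates.

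55969 was called fwd higher in every promoter table. The difference was 0.62 (SE 0.22) in set 1, 1.06 (SE 0.10) with pGAPDH and 1.30 (SE 0.27) with pAPOBEC3F, with limma adjusted p of 0.0073, 4.3e-25 and 1.2e-05. With pGAPDH its fwd element had 375 and 395 in RNA against 275 and 269 in DNA, and its rev element had 34.1 and 39.2 in RNA against 53.7 and 54.4 in DNA.

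54136 and 56944 were the other numbers called fwd higher in all 4 promoter tables. 54136 differed by 0.76 (set 1), 1.22 (set 2 pMYC), 0.90 (pGAPDH) and 0.75 (pAPOBEC3F). 56944 differed by 0.64, 0.71, 0.75 and 0.91 in the same tables. For 56944 with pGAPDH, the fwd element had 329 and 330 in RNA against 204 and 204 in DNA, while the rev element had 504 and 523 in RNA against 538 and 534 in DNA. Its fwd libraries were separated and its rev libraries nearly level (limma adjusted p = 0.071 for rev).

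71838 was called fwd higher in each of the 3 promoter tables in which both of its orientations were tested, by 1.06 in set 1, 0.94 with pGAPDH and 0.94 with pAPOBEC3F. In set 1 its fwd element had 168 and 151 in RNA against 116 and 115 in DNA, and its rev element 126 and 133 in RNA against 196 and 197 in DNA. The 2 orientations lay on opposite sides of DNA in every library. 54276 was paired in set 1 alone: its fwd values are given above, its rev element had 75.3 and 67.6 in RNA against 99.1 and 99.8 in DNA, and the difference was 1.34 (SE 0.25, limma adjusted p = 3.3e-07).

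Other wide gaps of set 1 were those of 52655, 56507 and 55756, which differed by 1.36, 0.99 and 0.84. 52655 rested on low signals, with 33.2 and 41.0 in RNA against 25.4 and 27.7 in DNA for fwd, and 15.5 and 10.9 in RNA against 23.3 and 24.9 in DNA for rev. 55756 also differed with pGAPDH, by 1.21, where its fwd element had 80.1 and 84.3 in RNA against 79.4 and 67.6 in DNA and its rev element had 59.7 and 55.6 in RNA against 118 and 120 in DNA. Here the rev element was called lower and the fwd element was not called (limma adjusted p = 0.058, or 0.047 with the replicate block).

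A few numbers ran the other way. 56320 with pGAPDH differed by -1.34 (SE 0.17, limma adjusted p = 2.2e-14): its fwd element had 29.0 and 32.4 in RNA against 43.5 and 43.6 in DNA, and its rev element had 28.7 and 32.2 in RNA against 14.6 and 19.9 in DNA. The RNA signals of its orientations were alike and the DNA signals were not. In set 1 the same number gave -0.60 and was not called, with -1.23 in replicate 1 and 0.02 in replicate 2. 54962 was called rev higher with pMYC in both sets, at -0.70 in set 1 and -0.57 in set 2, and in set 1 its replicates gave -1.32 and -0.07. Also called rev higher were 54696 with pMYC in set 2 (-0.37) and pGAPDH (-0.43), and 56129 with pGAPDH (-0.39). For 56616 the calls went both ways. Fwd was called higher in set 1, by 0.47 (limma adjusted p = 9.1e-07). Rev was called higher with pGAPDH (-0.18) and pAPOBEC3F (-0.30), with limma adjusted p of 0.0051 and 0.0068.

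54500 had a wide gap in 1 table and none that could be shown in another. With pGAPDH its fwd element had 79.5 and 83.6 in RNA against 63.0 and 66.4 in DNA, its rev element had 21.4 and 21.5 in RNA against 46.9 and 41.7 in DNA, and the difference was 1.38 (SE 0.14, limma adjusted p = 1.6e-20), the widest numbered pair of that table. In set 1 the difference was 0.04 (SE 0.24, limma adjusted p = 0.88), with both orientations below DNA. The tables were normalized separately and the change between them was not tested.

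Across the promoter tables, 26 numbers had at least 1 tested pair. Fwd lay above rev in every table for 14 of them, rev lay above fwd in every table for 4, and 8 changed sign between tables. Among the 22 numbers paired in 2 or more promoter tables these counts were 11, 3 and 8. Set 1 and set 2 are separate libraries and transfections, which allows a plain comparison of their pairs. Of the 10 numbers paired with pMYC in both sets, 6 had the same sign (Pearson r = 0.64 across numbers). Of the 16 paired in set 1 and with pGAPDH, 12 had the same sign (r = 0.63), and of the 9 paired in set 1 and with pAPOBEC3F, 8 had (r = 0.67).

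Many single elements had the same sign in all of their promoter tables. Of the 53 elements tested in 2 or more promoter tables, 18 were above 0 in every one, 27 were below 0 in every one and 8 had both signs. Of the 27 fwd elements among them 13 were always above and 9 always below, and of the 26 rev elements 5 were always above and 18 always below. Of these 53, 6 were called higher in every promoter table they entered, all of them fwd, and 15 were called lower in every one, 4 fwd and 11 rev. Of all 2931 elements in at least 2 promoter tables, 29.6% were called higher in every one and 20.5% lower. These shares were 31.1% and 16.0% of the fwd elements and 28.2% and 24.9% of the rev elements. With the replicate number as a block, 6 numbered elements were called higher in every promoter table and 12 lower, 2 fwd and 10 rev. Of all 62 elements, 5 were called higher in 1 table and lower in another, over both read-outs, and 2 were never called. No share over all elements is given for these counts or for the counts by sign, so they are not set against the library.

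The same minimal promoter in 2 independent libraries gave a repeat measurement of single elements. For 31 numbered elements in the pMYC promoter tables of both sets, the log2 ratios correlated with r = 0.70 across elements. Of these, 27 had the same sign, 9 above 0 and 18 below 0. Of the 17 called in both tables, 16 were called in the same direction, 4 higher and 12 lower. Of all 775 elements called in both tables, 763 were called in the same direction, or 98.5%. The median absolute difference between the sets was 0.27 on the log2 scale and the largest was 0.98.

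54128.fwd had unequal depth in the 2 sets. Its log2 ratio was -1.32 in set 1, from RNA signals of 6.30 and 9.95, and -0.39 in set 2, from RNA signals of 588 and 584 against DNA signals of 784 and 750. Both values were called lower, and the set 1 value rested on 22 and 40 RNA reads. 53626.rev was low in every promoter table, with log2 ratios of -0.66 (set 1), -0.89 (set 2 pMYC), -0.74 (pGAPDH) and -1.07 (pAPOBEC3F), and was called lower each time. Its fwd partner 53626.fwd was also called lower in all 4, at -0.31, -0.87, -0.78 and -1.03, though with the replicate block its adjusted p with pMYC in set 2 was 0.057.

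A smaller gap was also called for 56512, whose replicates lay close. Its fwd element had 640 and 614 in RNA against 485 and 480 in DNA in set 1, and its rev element had 637 and 618 in RNA against 626 and 634 in DNA. The difference of 0.38 (SE 0.06, limma adjusted p = 1.3e-08) was small beside those above, and its replicates gave 0.37 and 0.39. With pGAPDH the same number differed by -0.08 and was not called (limma adjusted p = 0.17).

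Among numbered elements in at least 6 of the 8 tables, the highest by mean percentile rank were 53604.fwd, 54136.fwd, 54347.rev, 56614.rev and 56944.fwd, and the lowest were 53626.fwd, 53626.rev, 54660.fwd, 54773.rev and 56194.fwd. Elements of both orientations stood at either end.

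In the enhancer read-out the numbered elements lay close to 0 at the median and closer to each other than in the promoter read-out. Their median log2 ratios were -0.01 (set 1, n = 54), 0.03 (set 2 pMYC, n = 37), -0.01 (pGAPDH, n = 48) and 0.00 (pAPOBEC3F, n = 35). These differed from the medians of all elements by -0.24, -0.17, 0.00 and -0.09. The SDs between elements, taken on the means of 2 replicates, were 0.31, 0.38, 0.28 and 0.45 in those tables. The SDs between single replicates were 0.33, 0.29, 0.24 and 0.40. A mean of 2 replicates varies less than a single one, so like sizes here do not make elements as alike as replicates. The set 1 replicate SD includes 54500.rev, whose first replicate had 0 RNA reads and 1 DNA read. The pAPOBEC3F SDs include 56129.fwd, which had 0 RNA reads in each replicate and a log2 ratio of -1.53.

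Calls were few. In set 1 limma called 5 numbered elements higher and 8 lower, where 54.3% of all tested elements were called higher and 11.2% lower. It called, with pMYC in set 2, 5 higher and 5 lower, where 39.6% were called higher and 7.38% lower. With pGAPDH it called 6 higher and 7 lower, where 23.5% were called higher and 19.2% lower. With pAPOBEC3F it called 0 higher and 5 lower, where 28.9% were called higher and 7.5% lower, and at an unadjusted p under 0.05 the higher count was 1 by this fit and 1 by the authors' limma values.

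These counts moved with single libraries. In the pAPOBEC3F enhancer table the higher calls numbered 2 without RNA replicate 1 and 6 without RNA replicate 2, and the lower calls numbered 9 without either, 1 without DNA replicate 1 and 0 without DNA replicate 2. In the set 1 enhancer table the higher calls ranged from 2 to 14 and the lower calls from 2 to 15 when 1 library was left out. With pMYC in set 2 the higher calls numbered 0 without DNA replicate 1 and 1 without DNA replicate 2, and the lower calls 1 and 0. With pGAPDH the lower calls numbered 3 without RNA replicate 1 and 2 without RNA replicate 2, and the higher calls 2 without RNA replicate 2.

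The lowest element of the set 1 enhancer table was 70577.fwd and the highest was 54588.rev. 70577.fwd had 43.4 and 47.6 in RNA against 110 and 96.3 in DNA, a log2 ratio of -1.17 ± 0.23 (SD, n = 2, limma adjusted p = 3.1e-05). 54588.rev had 90.2 and 68.2 in RNA against 51.7 and 51.1 in DNA, a log2 ratio of 0.62 ± 0.27 (SD, n = 2, limma adjusted p = 0.0075). Neither pair of RNA libraries overlapped its DNA libraries. 54128.fwd, at -1.06 ± 0.06 (SD, n = 2, limma adjusted p = 0.014), was low here as in the promoter table, again from few reads.

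56507.fwd was above DNA in both read-outs of set 1, with enhancer RNA of 214 and 234 against DNA of 171 and 167 (limma adjusted p = 0.0013). With pGAPDH the highest in the enhancer read-out were 54347.rev and 53604.fwd, which were also the 2 highest in the promoter read-out. 54347.rev had 142 and 130 in RNA against 98.2 and 81.5 in DNA, and 53604.fwd had 160 and 165 in RNA against 99.8 and 126 in DNA, with log2 ratios of 0.60 ± 0.10 and 0.53 ± 0.20 (SD, n = 2 each). 53604.rev, the partner in the other orientation, had 126 and 151 in RNA against 101 and 109 in DNA and was also called higher (limma adjusted p = 0.0015, or 0.051 without the intensity trend).

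The low end with pGAPDH was 54773.rev, at 9.55 and 17.3 in RNA against 20.8 and 23.4 in DNA, and 54500.rev, at 29.7 and 28.8 in RNA against 41.5 and 43.6 in DNA, both called lower (limma adjusted p = 0.015 and 0.013). Without the intensity trend 54773.rev was not called (limma adjusted p = 0.094). The lowest called elements with pMYC in set 2 were 54660.fwd, at 38.1 and 62.5 in RNA against 76.3 and 103 in DNA, and 56194.fwd, at 41.0 and 46.2 in RNA against 68.3 and 79.6 in DNA. Without the intensity trend 54660.fwd was not called (limma adjusted p = 0.085). 54986.fwd was called higher there, at 302 and 286 in RNA against 226 and 222 in DNA (limma adjusted p = 0.0081). With pAPOBEC3F 52920.rev, at 120 and 88.5 in RNA against 156 and 215 in DNA, was called lower (limma adjusted p = 0.016, or 0.069 without the intensity trend).

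Some of the extreme enhancer values were not called. 55756.fwd had 70.3 and 73.4 in RNA against 41.2 and 58.4 in DNA with pMYC in set 2 and missed the threshold (limma adjusted p = 0.083), as it did with pAPOBEC3F at 143 and 182 in RNA against 104 and 126 in DNA (limma adjusted p = 0.082). 53626.fwd had the lowest ratio with pMYC in set 2, from 2 and 3 RNA reads and 18 and 16 DNA reads, and was not called (limma adjusted p = 0.19).

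Replicates ordered the numbered elements better in the promoter than in the enhancer read-out. Across elements, replicate 1 and replicate 2 correlated with r = 0.81, 0.85, 0.93 and 0.74 in the promoter tables of set 1, set 2 pMYC, pGAPDH and pAPOBEC3F, and with r = 0.29, 0.54, 0.46 and 0.42 in the enhancer tables. The same coefficients for the other elements were 0.99, 0.98, 0.98 and 0.99 in the promoter and 0.98, 0.86, 0.80 and 0.80 in the enhancer tables. Those elements had more reads at the median in every library and a larger SD between elements in every table. With pGAPDH that SD was close, at 0.67 for the other and 0.61 for the numbered elements in the promoter read-out. In the enhancer read-out it was 0.34 against 0.28 with pGAPDH, and 0.97 against 0.31 in set 1. The set 1 enhancer coefficient of the numbered elements includes 54500.rev, and the pAPOBEC3F one 56129.fwd, each with 0 RNA reads in at least 1 replicate. Whether range or reads account for the lower coefficients of the numbered elements was not tested. For the 32 numbered elements in the pMYC enhancer tables of both sets, r was 0.19.

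In the enhancer read-out orientation made little difference that the data could show. The fwd and rev medians were 0.02 and -0.05 (set 1), -0.06 and 0.04 (set 2 pMYC), 0.00 and -0.03 (pGAPDH) and -0.12 and 0.07 (pAPOBEC3F). Within numbers, the median difference in set 1 was 0.08 over 22 numbers (-0.05 in replicate 1 and 0.23 in replicate 2). Limma called fwd higher for 0 and lower for 1 (70577), where 11.7% of all pairs were called higher and 22.1% lower. At an unadjusted p under 0.05 it was 1 in each direction.

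With pGAPDH the median enhancer difference was 0.08 over 20 numbers, 0.07 in replicate 1 and -0.01 in replicate 2, with fwd called higher for 2 and lower for 0, where 4.83% of all pairs were called higher and 15.6% lower. These numbers were 54773 and 54500. For pMYC in set 2 it was -0.14 over 12 numbers, -0.10 in replicate 1 and -0.28 in replicate 2. With pAPOBEC3F it was -0.16 over 11 numbers, -0.22 in replicate 1 and -0.19 in replicate 2. No pair was called by limma in either table, where 4.14% and 1.6% of all pairs were called higher and 7.18% and 2.02% lower. At an unadjusted p under 0.05, 2 pairs were higher and 2 lower with pMYC, and 0 and 0 with pAPOBEC3F, where in simulated data a true difference of 0.5 was recovered in 20.7% of pairs.

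Whether the orientation gap itself differs between read-outs was tested for each number as the promoter difference minus the enhancer difference, a test added after the data had been seen. In set 1 this was called above 0 for 13 of 21 numbers and below 0 for 0 (1 at an unadjusted p under 0.05), where 49.1% of all 709 pairs were above and 15.8% below. With pGAPDH it was above 0 for 7 of 20 and below for 2, where 32.7% were above and 16% below. With pAPOBEC3F it was above 0 for 3 of 11 and below for 0, also 0 unadjusted, where 20.5% were above and 9.45% below. With pMYC in set 2 it was called for 0 of 12, with 4 above and 0 below at an unadjusted p under 0.05, where 8.61% were above and 3.33% below. The pGAPDH count, as a share of its 20 numbers, was near the share among all pairs.

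For 71838 with pGAPDH, the fwd minus rev difference was 0.94 in the promoter and 0.05 in the enhancer read-out, a difference of 0.89 (SE 0.25, limma adjusted p = 0.0012). For 55969 with pGAPDH it was 1.06 and 0.08, a difference of 0.99 (SE 0.17, limma adjusted p = 4.5e-08). 70577 in set 1 was called with a promoter difference of 0.30 and an enhancer difference of -0.93, so its gap there lay in the enhancer read-out. With pMYC in set 2 the same number had -0.60 and 0.12 and was not called (limma adjusted p = 0.32).

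Promoter and enhancer values of the same numbered element were related but not interchangeable. Across elements the log2 ratios of the read-outs correlated with r = 0.46 in set 1 (n = 53), 0.70 with pMYC in set 2 (n = 37), 0.58 with pGAPDH (n = 48) and 0.58 with pAPOBEC3F (n = 34). Among elements with at least 10 reads in every library, r was 0.36 (n = 50), 0.64 (n = 34), 0.58 (n = 48) and 0.57 (n = 25). The read-outs come from separate libraries of the same cells and constructs.

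As a zero point, the numbered elements left most of the other elements inside their own range in every table. The share inside was lowest in the set 1 promoter table (57.6%). It was highest with pGAPDH, at 89.6% in the promoter and 94.3% in the enhancer read-out. Of the other elements in the set 1 promoter table, 619 of 1475 (42.0%) lay above the highest numbered element. The share was 29.1% with pMYC in set 2 and 40.0% with pAPOBEC3F, and 8.44% with pGAPDH (253 of 2996). In the enhancer read-out it was 37.5%, 28.2% and 24.6% for set 1, set 2 pMYC and pAPOBEC3F, and 5.34% with pGAPDH. Of the 1095 other elements that limma called higher in the pGAPDH promoter table, 842 (76.9%) lay within the range of the numbered elements, against 220 of 839 (26.2%) in the set 1 promoter table.

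Recentring on the numbered elements' own median shifts all elements of a replicate alike, so it cannot change the differences between them. Like numbers of calls above and below that median follow from the centring. What the counts give is how many elements could be told apart from the median. In the promoter read-out of set 1, 19 were then called above that median and 13 below, where 63.7% of all tested elements were called above and 14.9% below. The counts were 13 and 14 with pMYC in set 2 (55.6% and 18.2% of all), with pGAPDH 20 and 18 (42.9% and 39.8%), and with pAPOBEC3F 10 and 10 (53.2% and 24.5%). In the enhancer read-out they were 5 and 6 in set 1 (54.1% and 7.98%), 5 and 5 for set 2 pMYC (43% and 5.08%), 3 and 4 for pGAPDH (15% and 7.33%), and 0 and 4 for pAPOBEC3F (28.6% and 6.05%). When 1 library was left out, the lower count of the set 1 promoter table ranged from 2 to 23 and the higher count of the pAPOBEC3F enhancer table from 0 to 7. At an unadjusted p under 0.05 that higher count was 1 by limma.

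Because the fwd and rev medians of the numbered elements differ in the promoter read-out, the zero point moved with the orientation used to set it. This alternative was tried after the data had been seen. In the promoter read-out of set 1, 758 other elements were called higher and 524 lower with the zero at the median of the fwd numbered elements, and 1101 were called higher and 119 lower with the zero at that of the rev ones. With pGAPDH the counts were 519 higher and 1929 lower with the fwd zero, and 1757 higher and 732 lower with the rev zero. The majority direction among the other elements of the pGAPDH promoter table thus turned with that choice. A separate zero for each orientation gave 904 higher and 323 lower in set 1, and 1100 higher and 1353 lower with pGAPDH.

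In the enhancer read-out the choice mattered less in set 1, where 810 other elements were called higher with the fwd zero and 824 with the rev zero. With pAPOBEC3F the higher counts were 827 and 556. Across the numbered elements the log2 ratio and the log2 DNA reads correlated weakly, with r between 0.03 and 0.22 over the 8 tables. DNA is also the denominator of that ratio, and whether representation bears on it was not tested.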

How the data were processed

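The authors deposited, for each set, minimal promoter and barcode, a table with 1 signal column per RNA and DNA library and their own limma log2 fold changes, scores (t and B statistics) and p-values, per the file headers. The submitters' processing notes name fastp, edgeR and limma and the build hg38; versions are not given in the sources used here. Every signal value is a whole multiple (100% within 0.02) of 1 step per column, taken as 1 read, and the scaling factors implied by the 4 column totals multiply to 1 in each table. Their scaling fixes where a ratio of 0 falls.

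Log2 of signal plus 0.5 read was compared between RNA and DNA with limma 3.58.1 in R 4.3.3, with an intensity trend and Benjamini-Hochberg adjustment over the whole table. The deposited fold changes were within 0.04 of these. Fwd minus rev was tested on the difference per replicate over all pairs. Tables were fitted separately. The submitters' labels pair RNA and DNA by replicate number, as material split from 1 pool; deviations with the same number correlated from -0.07 to 0.41. The planned count test was not run, since the deposited values are not counts and the reads given here were worked out from the steps. Named elements are the 3 highest and 3 lowest per table, the 5 widest called pairs per table and the 5 highest and 5 lowest mean ranks among elements in at least 6 tables; others named were chosen after their values were seen. On simulated data a change of 1 between RNA and DNA was recovered in 94.0% to 100% of the randomly chosen elements that carried it. False calls were 1.49% to 7.11% of calls there, and 1.09% to 7.86% for fwd against rev. The simulated noise was set by signal level alone, so these shares need not hold for the numbered elements. The members and lists were chosen with earlier results of these data known.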

Additional observations from a re-analysis of the deposited data

Results flagged for a closer look

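The orientation gap of a numbered element, fwd minus rev on the log2 scale, differed between the promoter and the enhancer read-out of the same table set in 25 tests by limma at an adjusted p under 0.05. The values are the promoter gap minus the enhancer gap. In set 1 all 13 were positive: 52579 (0.595), 52655 (1.02), 53626 (0.529), 54136 (0.895), 54276 (1.13), 55756 (0.796), 55969 (0.595), 56507 (0.881), 56512 (0.493), 56616 (0.632), 56944 (0.487), 70577 (1.23) and 71838 (0.752). With pAPOBEC3F they were 54696 (0.951), 55969 (1.62) and 56944 (0.638).

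With pGAPDH the gap was larger in the promoter read-out for 52579 (1.20), 54136 (0.679), 55756 (1.14), 55969 (0.985), 56194 (0.976), 56944 (0.591) and 71838 (0.885), and it was lower for 56129 (-0.831) and 56320 (-1.53). 55969 and 56944 were in this list with all of set 1, pGAPDH and pAPOBEC3F. The test was added after the data had been seen, and calls of this kind were also common among all pairs, at 49.1% above 0 in set 1, 32.7% with pGAPDH and 20.5% with pAPOBEC3F. 53626 in set 1 combined a promoter gap of 0.35 with an enhancer gap of -0.18, and 54696 with pAPOBEC3F had 0.41 and -0.54.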

How the results depend on the processing

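Leaving out 1 library at a time moved many counts of called numbered elements. An element's own spread then comes only from the group that keeps its 2 libraries. The higher calls ranged from 8 to 20 in the set 1 promoter table, 2 to 14 in the set 1 enhancer, 0 to 7 in the set 2 pMYC enhancer, 2 to 6 in the pGAPDH enhancer, 4 to 10 in the pAPOBEC3F promoter and 0 to 6 in the pAPOBEC3F enhancer table. The lower calls ranged from 13 to 31, 2 to 15, 0 to 7, 2 to 6, 8 to 17 and 0 to 9 in the same tables. Against the numbered elements' own median, higher calls ranged from 2 to 14 in the set 1 enhancer, 6 to 16 in the set 2 pMYC promoter, 2 to 9 in the set 2 pMYC enhancer, 1 to 4 in the pGAPDH enhancer, 4 to 15 in the pAPOBEC3F promoter and 0 to 7 in the pAPOBEC3F enhancer table. Lower calls of that kind ranged from 2 to 23 in the set 1 promoter, 2 to 15 in the set 1 enhancer, 7 to 16 in the set 2 pMYC promoter, 0 to 6 in the set 2 pMYC enhancer, 0 to 4 in the pGAPDH enhancer and 0 to 9 in the pAPOBEC3F enhancer table. With 1 replicate at a time, the median log2 ratio ranged from -0.23 to -0.19 in the set 1 promoter, -0.041 to 0.0011 in the set 1 enhancer, -0.22 to -0.087 in the set 2 pMYC promoter, -0.060 to -0.047 in the set 2 pMYC enhancer, -0.14 to -0.077 in the pAPOBEC3F promoter and -0.037 to 0.014 in the pAPOBEC3F enhancer table. The median fwd minus rev difference ranged from -0.050 to 0.23 in the set 1 enhancer, -0.077 to 0.20 in the set 2 pMYC promoter and -0.014 to 0.072 in the pGAPDH enhancer table, negative without replicate 2 in the first and without replicate 1 in the others.

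Centred on all elements, higher and lower calls were 3 and 37 in the set 1 promoter, 1 and 27 in the set 1 enhancer, 0 and 11 in the set 2 pMYC enhancer and 3 and 19 in the pAPOBEC3F promoter table, and 6 were higher in the set 2 pMYC promoter table. Without the intensity trend there were 3 higher and 3 lower in the set 2 pMYC enhancer, 3 lower in the pGAPDH enhancer and 2 lower in the pAPOBEC3F enhancer table. With 2 reads added, medians were 0.027 in the set 1 enhancer, 0.045 in the set 2 pMYC enhancer and 0.104 in the pAPOBEC3F enhancer table, where 1 element was called higher. The cause of these moves was not tested.

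With the replicate number as a block, 14 numbered elements were called higher and 22 lower in the set 1 promoter table, and no count moved by over 1.5 times in any table. The block changed 10 of 346 calls and turned none to the opposite direction. In the promoter read-out 53626.fwd lost its lower call with pMYC in set 2, 56194.fwd in set 1 and 52655.rev with pGAPDH, and 55756.fwd with pGAPDH and 54128.rev with pAPOBEC3F gained calls; it changed no other call of a single element given in the report. The count test planned as an alternative was not run, because it needs counts. The deposited values are scaled signals, and the reads given here were worked out from the size of the steps. Depth limits the enhancer tables, above all pAPOBEC3F, where the median numbered element had 20 and 21 RNA reads.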
